A study of Mus musculus with 13 samples.

Results

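The renin-angiotensin system was followed through 7 genes, chosen by name, in mouse kidneys with cysts and in a mouse kidney cell line: Ren1, Agt, Agtr1a, Ace, Mme, Enpep and Atp6ap2. All 7 were found among the 28183 genes of the kidney table, and all 7 were high enough to be tested. In the cell table, a selection of 2016 genes, 3 of them had a row (Mme, Enpep and Atp6ap2), and the other 4 were not analysed there.

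Angiotensinogen (Agt), made in liver and in proximal tubule, is cut by renin (Ren1), which the granular cells of the juxtaglomerular apparatus release, and the product is cut again by angiotensin-converting enzyme (Ace) to angiotensin II. Angiotensin II acts through the type 1 receptor (Agtr1a) on vessels and tubules to raise blood pressure and sodium uptake, and it is broken down at cell surfaces by peptidases that include aminopeptidase A (Enpep) and neprilysin (Mme). Atp6ap2, known as the prorenin receptor, binds prorenin and is also an accessory subunit of the proton pump V-ATPase. High blood pressure is common in autosomal dominant polycystic kidney disease, and drugs that block this system are used to treat it.

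The kidneys came from C57BL/6 mice of a pair of models of this disease, in which a floxed gene is removed by a Cre recombinase. At postnatal day 10, kidneys of KSP/Cre+;Pkd1f/f mice (Pkd1 knockouts) were set beside those of KSP/Cre-;Pkd1f/f controls, and at postnatal day 20 those of Pkhd1/Cre+;Pkd2f/f mice (Pkd2 knockouts) beside Pkhd1/Cre-;Pkd2f/f controls, with 2 libraries in each of the 4 groups. Every animal, controls included, carried the floxed alleles. KSP is the promoter of kidney-specific cadherin, active in tubule epithelium, and Pkhd1 is active mainly in collecting ducts. Neither promoter is known as one of granular cells, vessels or glomeruli. The Pkd2 knockouts were grouped by their genotype and description, though "(WT)" stands in their titles. The mIMCD-3 cells, a line from the inner medullary collecting duct, were transfected with 10 nM of a control gapmer (2 libraries) or of one that targets Hoxb3os, a long noncoding RNA (3 libraries) and harvested at 48 h. A gapmer is an antisense oligonucleotide that directs cleavage of the RNA it pairs with. The Hoxb3os gapmer was given in the labels as 16 bases.
Hoxb3os gapmer: attactgcttcttcca

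The kidney values are CPM divided by a scaling factor for each library, made by the authors, and rested on 30.7 to 94.4 M reads per library. Summed over the whole gene, Pkd1 read 31.1 and 22.7 in the Pkd1 controls against 24.1 and 26.0 in the Pkd1 knockouts, and Pkd2 read 69.0 and 61.2 in the Pkd2 controls against 50.7 and 53.3 in the Pkd2 knockouts. A sum over all exons does not check a deletion of some of them in some cells, and neither gene was called. Y-linked genes were unevenly spread: in the day 10 kidneys they summed to 155 and 10.4 (controls) and to 149 and 183 (knockouts), and in the day 20 kidneys to 0.104 and 0.0221 (controls) and to 169 and 0.0462 (knockouts). Genes of the mitochondrial genome took at most 41.4% of the summed values, and less in each knockout library than in either of its controls. Adrenal markers summed to 149 in Pkd2 control replicate 2 and to between 0.477 and 4.11 in the other libraries. Xist, an RNA of female cells, went from 0.221 to 416 between the Pkd1 control replicates and from 1.74 to 449 between the Pkd2 knockout replicates. With their Y-linked sums, the replicates of these groups thus differed in markers of sex and were not repeats of 1 animal. Xist lay close in the Pkd1 knockouts (25.3 and 27.7) and the Pkd2 controls (346 and 350). Whether those replicates came from different animals is not stated. Each p-value weighs a difference against the spread of all these libraries, which may be technical in part. Log2 fold changes are given on the log2(value + 1) scale with their SE (2 libraries against 2), and adjusted p-values are from limma with Benjamini-Hochberg adjustment over 14637 genes, called below 0.05.

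The RefSeq sequence before the start of a gene (GRCm38.p6) was at hand for 6 of the 7 genes, and the 250 bases before the start are shown for Ren1, Ace and Enpep, which fell in at least one model, and for Agt, the substrate. They were searched on both strands for the TATA box TATAAA, which 12.4% of 32851 promoter windows of the same length held, for the cAMP response core TGACGT (6.47%) and for GTTAAT, the core of the HNF1 site (6.43%). The capitals mark a TATAAA, shown as its reverse complement where it is read on the other strand. The windows lie at chr1:133350424-133350673 on the plus strand for Ren1, chr11:105967698-105967947 on the plus strand for Ace, chr3:129332750-129332999 on the minus strand for Enpep and chr8:124569707-124569956 on the minus strand for Agt.
Ren1: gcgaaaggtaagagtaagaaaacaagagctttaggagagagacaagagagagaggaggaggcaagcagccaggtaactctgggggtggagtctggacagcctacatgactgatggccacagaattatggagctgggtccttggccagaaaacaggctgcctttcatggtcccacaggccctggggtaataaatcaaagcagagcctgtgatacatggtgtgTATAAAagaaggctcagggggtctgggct
Ace: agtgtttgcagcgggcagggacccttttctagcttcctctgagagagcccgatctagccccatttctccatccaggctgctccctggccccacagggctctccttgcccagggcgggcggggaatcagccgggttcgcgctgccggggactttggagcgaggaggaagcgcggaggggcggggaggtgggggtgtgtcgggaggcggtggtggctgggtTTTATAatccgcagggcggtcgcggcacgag
Enpep: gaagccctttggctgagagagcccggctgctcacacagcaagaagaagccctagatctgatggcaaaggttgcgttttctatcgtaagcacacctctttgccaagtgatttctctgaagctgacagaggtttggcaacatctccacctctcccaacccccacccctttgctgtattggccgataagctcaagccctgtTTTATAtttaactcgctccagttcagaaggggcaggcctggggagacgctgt
Agt: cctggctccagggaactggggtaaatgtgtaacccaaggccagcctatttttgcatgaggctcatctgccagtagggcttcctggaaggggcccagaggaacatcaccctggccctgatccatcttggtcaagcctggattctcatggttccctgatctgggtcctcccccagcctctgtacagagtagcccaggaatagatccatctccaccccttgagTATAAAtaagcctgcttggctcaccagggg
In Ren1 the match began 29 bases before the start and in Agt 30 bases before it, both on the strand of the gene. In Ace it lay 31 bases and in Enpep 52 bases before the start, on the opposite strand. The last 164 bases of the Ren1 window lie inside the span the files give to the gene, since the start in RefSeq is further downstream. A further window of Ace, inside the gene, the 3 windows of Mme and the 1 window of Atp6ap2 held no TATAAA, and that of Atp6ap2 held TGACGT. None of these windows held GTTAAT, which says only that these letters are not there.

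Per kilobase of exon, the 7 genes stood in different orders in the 4 groups. In the Pkd1 controls the order of the mean levels per kilobase was Ren1 (38.4), Enpep (30.4), Ace (24.1), Mme (14.0), Atp6ap2 (10.7), Agt (6.24) and Agtr1a (4.43), and no neighbours in that order overlapped between libraries. In the Pkd2 controls it was Ace (29.8), Enpep (24.8), Ren1 (19.6), Mme (17.5), Atp6ap2 (12.6), Agt (12.6) and Agtr1a (4.95), where Ace and Enpep, Ren1 and Mme, and Atp6ap2 and Agt did not differ beyond the spread of their libraries. In the Pkd1 knockouts Ace, at 7.14 per kilobase, stood below Ren1 (32.6), Enpep (15.6), Atp6ap2 (12.9) and Mme (10.8), and above Agt (4.68) and Agtr1a (1.61), though its libraries overlapped with those of Mme and of Agt, as those of Enpep and Atp6ap2 did. In the Pkd2 knockouts the levels per kilobase ran from Enpep (17.2), Atp6ap2 (13.2), Mme (12.2), Ace (11.4), Ren1 (8.61) and Agt (8.41) to Agtr1a (2.78), where Mme and Ace overlapped, and Ren1 and Agt. The exon lengths are the union of the exons of GENCODE M21 and reach 11542 bases for Mme, so its level per kilobase depends on how much of that union is transcribed. The receptor gene was the lowest of the 7 in the mean of every group.

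**Figure D1:**
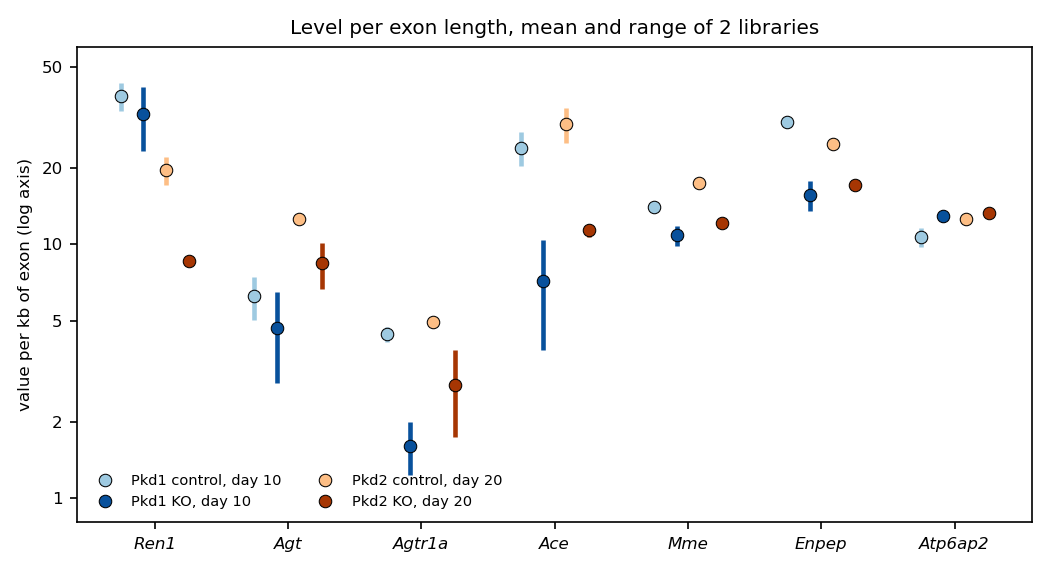
Level per kilobase of exon (log axis) of each member gene in the 4 kidney groups, with points for the mean and bars for the range of 2 libraries. Ren1 leads in the Pkd1 controls at 38.4 and stands at 8.61 in the Pkd2 knockouts, while Atp6ap2 stays between 10.7 and 13.2 and Agtr1a is lowest in each group.

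In the Pkd1 knockouts at day 10, Ace, Enpep and Agtr1a fell, while renin, angiotensinogen, neprilysin and the prorenin receptor did not pass the test. Of the 7 genes, 3 fell and 0 rose, where 10.6% of all tested genes were called, 5.48% falling and 5.11% rising, and 4 of 7 lay below the controls without overlap, as 29.2% of all tested genes did. The median log2 fold change of the 7 was -0.45, and that of all tested genes was -0.0021. The count of 3 became 0 without Pkd1 control replicate 1, without Pkd1 control replicate 2 or without Pkd1 knockout replicate 1, and Agtr1a alone lost its call without either Pkd2 control (adjusted p = 0.062 for each), since the 4 groups share the estimate of spread.

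**Figure D2:**
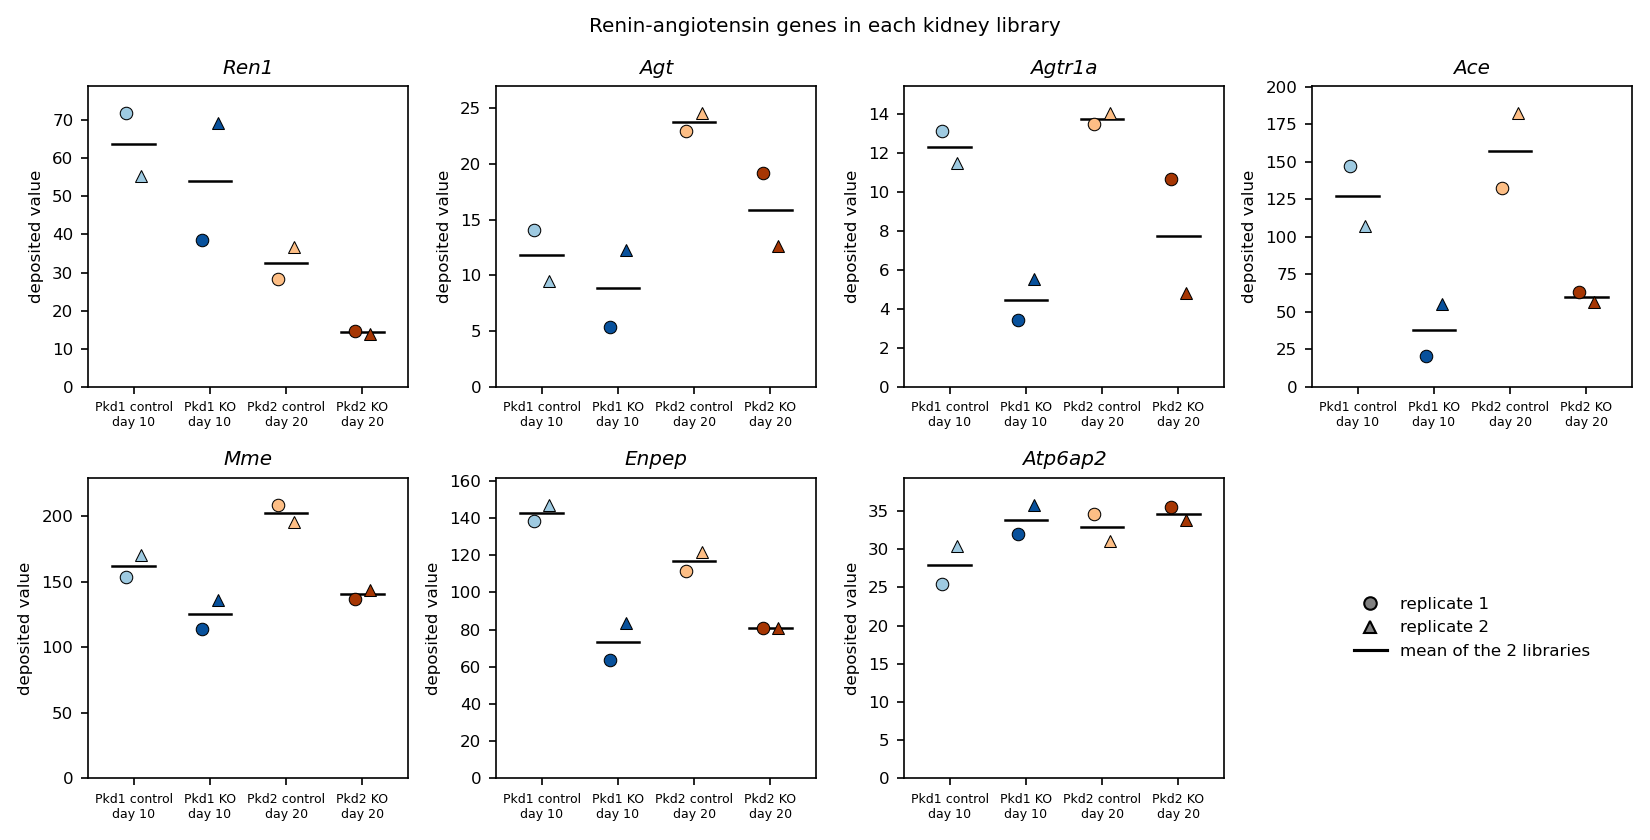
Deposited value (scaled CPM, linear axes from 0) of each member gene in each of the 8 kidney libraries, with circles for replicate 1, triangles for replicate 2 and lines for the group mean. Ace, Enpep and Agtr1a lie lower in both Pkd1 knockouts than in both Pkd1 controls, and Ren1 is lowest in the Pkd2 knockouts.

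Agt, the precursor of every angiotensin peptide, lies on chromosome 8 (GRCm38, chr8:124556534-124569706, minus strand). It read 14.1 and 9.49 in the Pkd1 controls against 5.37 and 12.3 in the Pkd1 knockouts. One knockout library lay below both controls and the other between them, and the change of -0.45 ± 0.35 was not called (adjusted p = 0.443). Its 95% interval ran from -1.24 to 0.34.

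Ren1, whose product makes the first and rate-limiting cut of angiotensinogen, lies at chr1:133350510-133360325 on the plus strand. It read 71.8 and 55.4 in the Pkd1 controls against 38.7 and 69.3 in the Pkd1 knockouts, so that the groups overlapped. The change of -0.28 ± 0.27 was not called (adjusted p = 0.552), and its 95% interval ran from -0.90 to 0.34. Without Pkd1 knockout replicate 1 the sign turned, to 0.13.

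Ace, which removes a dipeptide from angiotensin I and also degrades bradykinin, lies at chr11:105967945-105989964 on the plus strand. It read 147 and 107 in the Pkd1 controls against 20.3 and 55.2 in the Pkd1 knockouts, resting on 1168 reads in the lowest library. Both knockout libraries lay well below both controls, and the ratio between them was larger than that between the controls. Ace fell by 1.87 ± 0.40 on the log2 scale (adjusted p = 0.022), to 0.273 times the control level on this scale, the largest change of the 7 genes in this model. The authors' deposited table gave it a log2 fold change, as control minus knockout, of 1.75 with an adjusted p of 0.000117. A predicted gene on the opposite strand, Gm11651, shares 295 exon bases with Ace, and it was listed at 0 in 7 libraries and at 0.0441 in the eighth. The sources used here do not give the strand setting of the counting.

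Agtr1a, the main angiotensin II receptor of the rodent kidney, lies at chr13:30336441-30382867 on the plus strand. It read 13.2 and 11.5 in the Pkd1 controls against 3.42 and 5.52 in the Pkd1 knockouts, with 197 reads in the lowest of these libraries. The groups did not overlap, and Agtr1a fell by 1.31 ± 0.32 on the log2 scale (adjusted p = 0.034), to 0.404 times the control level on this scale. The scale adds 1 to each value, and the group means of the values themselves were 12.3 and 4.47. Agtr1a had a log2 fold change, control minus knockout, of 1.47 in the authors' deposited table with an adjusted p of 0.00274.

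Enpep, which trims the first residue from angiotensin II, lies at chr3:129269175-129332720 on the minus strand. It read 139 and 147 in the Pkd1 controls against 63.6 and 83.4 in the Pkd1 knockouts. Enpep fell by 0.96 ± 0.18 on the log2 scale (adjusted p = 0.014), to 0.513 times the control level on this scale, and it had the smallest adjusted p of the 7. Without mitochondrial genes the change was -0.94 and not called (adjusted p = 0.181), and 13 of 17 alternatives kept the call. Its adjusted p in the authors' deposited table was 0.0861, with a log2 fold change of 0.96 for control minus knockout.

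Mme, another peptidase of the brush border, at chr3:63241537-63386030 on the plus strand, read 154 and 170 in the Pkd1 controls against 114 and 136 in the Pkd1 knockouts. Both knockouts lay below both controls, and the change of -0.37 ± 0.18 was not called (adjusted p = 0.220). The ratio of Enpep to Mme was 0.900 and 0.864 in the Pkd1 controls against 0.558 and 0.612 in the Pkd1 knockouts. In the Pkd2 model the ratio was 0.536 and 0.623 in the controls and 0.589 and 0.564 in the knockouts, which overlapped and lay near the Pkd1 knockouts.

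Atp6ap2, at chrX:12587801-12617049 on the plus strand, read 25.5 and 30.5 in the Pkd1 controls against 32.0 and 35.8 in the Pkd1 knockouts. It was the only one of the 7 whose knockout libraries both lay above both controls, as 29.1% of all tested genes did. The change of 0.27 ± 0.16 was not called (adjusted p = 0.327).

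In the Pkd2 knockouts at day 20, renin and Ace fell, and the other 5 genes did not pass the test. Of the 7 genes, 2 fell and 0 rose, where 17.7% of all tested genes were called, 8.13% falling and 9.54% rising. Without overlap, 6 of 7 lay below the controls and 0 above, as 30.9% and 31.9% of all tested genes did. The median log2 fold change of the 7 was -0.58, against -0.0082 over all tested genes. At an unadjusted p below 0.05, which 33.1% of all tested genes reached, Mme, Enpep and Agtr1a would have joined them. The count of 2 became 0 without Pkd2 control replicate 1, without Pkd2 control replicate 2 or without Pkd2 knockout replicate 2, and 1 without either Pkd1 control.

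Ren1 read 28.4 and 36.6 in the Pkd2 controls against 14.6 and 13.9 in the Pkd2 knockouts. The knockout libraries lay close together, at 521 and 603 reads, and well below the controls. Ren1 fell by 1.12 ± 0.27 on the log2 scale (adjusted p = 0.024), to 0.460 times the control level on this scale. Ren1 had a log2 fold change, control minus knockout, of 1.19 in the authors' deposited table with an adjusted p of 0.0170. Without Pkd2 control replicate 2, the library with adrenal markers, the change was -0.94 with an adjusted p of 0.176.

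Ace read 132 and 182 in the Pkd2 controls against 63.5 and 56.7 in the Pkd2 knockouts. Ace fell by 1.36 ± 0.40 on the log2 scale (adjusted p = 0.048), to 0.390 times the control level on this scale, and was the only one of the 7 called in both models. The call was near the threshold: 4 of 17 alternatives kept it, over which the change ran from -1.59 to -1.05 and the adjusted p from 0.00151 to 0.256. In the authors' deposited table its adjusted p was 0.00303, with a log2 fold change of 1.39 for control minus knockout.

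Agtr1a read 13.5 and 14.1 in the Pkd2 controls against 10.7 and 4.83 in the Pkd2 knockouts. The knockout libraries lay far apart, and the change of -0.84 ± 0.32 was not called (adjusted p = 0.101). Without Pkd2 knockout replicate 1, the higher of them, the change was -1.34 with an adjusted p of 0.00716, and without replicate 2 it was -0.34 with an adjusted p of 0.496. With the Y-linked sum as a covariate, added after the data were seen, the change was -1.28 with an adjusted p of 0.0134, and the other 15 of 17 alternatives left it uncalled.

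Agt read 22.9 and 24.5 in the Pkd2 controls against 19.2 and 12.6 in the Pkd2 knockouts, a change of -0.58 ± 0.35 that was not called (adjusted p = 0.284). Mme read 209 and 196 in the controls and 137 and 144 in the knockouts, a change of -0.52 ± 0.18 (adjusted p = 0.079). Enpep read 112 and 122 in the controls and 80.8 and 80.9 in the knockouts, a change of -0.52 ± 0.18 (adjusted p = 0.082). For these 3 genes both knockout libraries lay below both controls.

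Atp6ap2 read 34.7 and 31.1 in the Pkd2 controls against 35.5 and 33.8 in the Pkd2 knockouts. The groups overlapped, and the change of 0.07 ± 0.16 was not called (adjusted p = 0.796), with a 95% interval from -0.30 to 0.45. The prorenin receptor was the one gene of the 7 with a positive change in both models, and without Pkd2 control replicate 2 its change in the Pkd2 model was -0.0029.

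The effects in the models were compared with each other by the difference of the knockout effects (Pkd1 minus Pkd2), for which 0 of the 7 genes and 0.00683% of all tested genes were called. An unadjusted p below 0.05 was reached by 0 of the 7 with limma, and by Ren1 alone with edgeR and with DESeq2 (8.25%, 8.06% and 7.43% of all tested genes). Ren1 had the largest difference, 0.84 ± 0.39 (adjusted p = 0.643, 95% interval -0.04 to 1.72), so its call in the Pkd2 model and not in the Pkd1 model does not show that the models differ. For Ace the difference was -0.51 ± 0.57 (adjusted p = 0.974, 95% interval -1.80 to 0.77). For Enpep it was -0.44 ± 0.26 (adjusted p = 0.807, 95% interval -1.03 to 0.15), and for Agtr1a -0.47 ± 0.45 (adjusted p = 0.955, 95% interval -1.48 to 0.55).

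**Figure D3:**
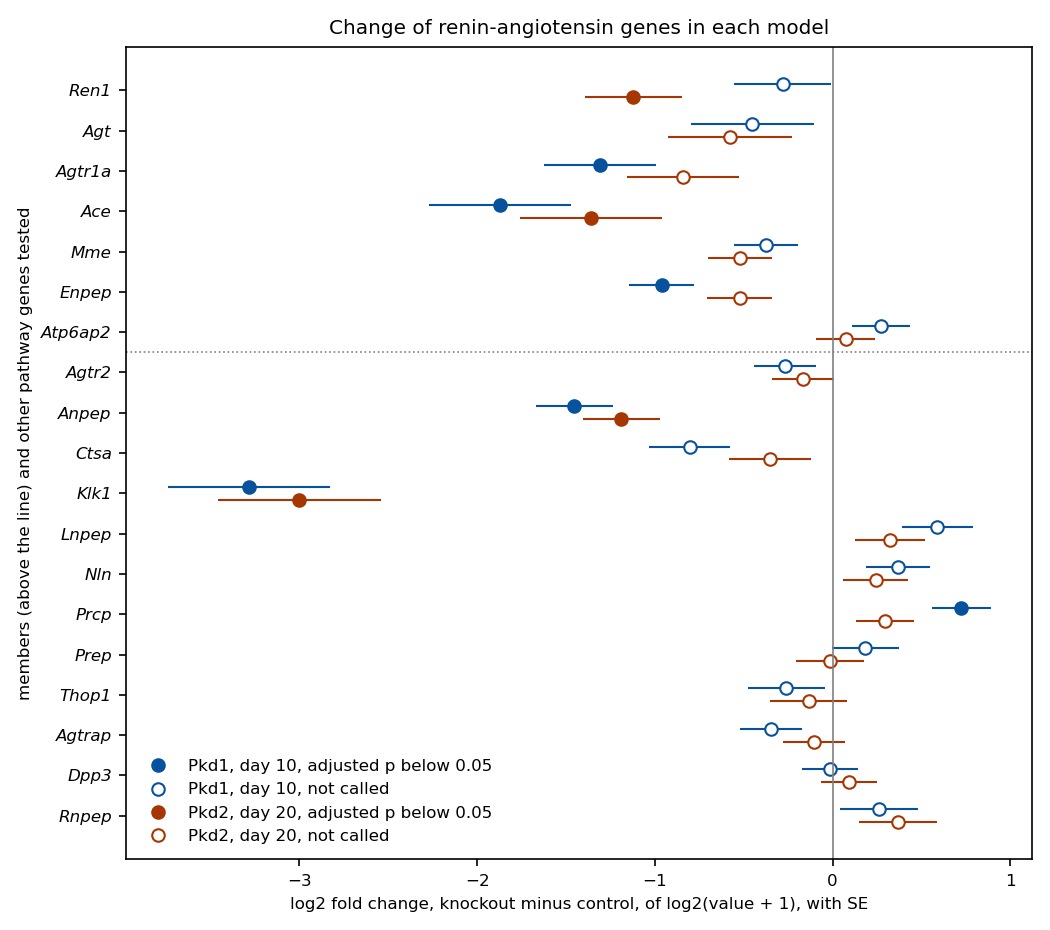
Log2 fold change of knockout minus control with its SE for the 7 member genes (above the dotted line) and the 12 other pathway genes tested, in the Pkd1 model (blue) and the Pkd2 model (brown), with filled points for adjusted p below 0.05. Ace at -1.87 and -1.36 is filled in both models among the members, as Klk1 and Anpep are among the others.

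The controls of day 20 and day 10 differ in age and also in the floxed gene they carry, which cannot be told apart, and the same libraries serve the knockout comparisons. They also differ in the Y-linked sums, 155 and 10.4 at day 10 and 0.104 and 0.0221 at day 20. Adrenal markers were high in Pkd2 control replicate 2. Of the 7 genes 0 were called, where 12.3% of all tested genes were (5.04% higher and 7.26% lower at day 20). An unadjusted p below 0.05 was reached by Ren1 and Agt with limma, edgeR and DESeq2, as by 27.4%, 27.3% and 26.1% of all tested genes, and DESeq2 called both after adjustment while edgeR called 0. Ren1 read 71.8 and 55.4 at day 10 and 28.4 and 36.6 at day 20, a difference of -0.95 ± 0.27 (adjusted p = 0.056). Agt read 14.1 and 9.49 at day 10 and 22.9 and 24.5 at day 20, a difference of 0.97 ± 0.35 (adjusted p = 0.109). Neither was called. The day 20 libraries of Ren1 lay below and those of Agt above both day 10 libraries, as 31.2% and 31.1% of all tested genes did. For Ace the difference was 0.30 ± 0.40 (adjusted p = 0.680), with overlapping groups.

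Other genes of the pathway were taken from a list of 18, of which 12 were tested. In the Pkd1 knockouts 1 rose, 2 fell and 9 did not pass, with a median of -0.14, and in the Pkd2 knockouts 0 rose, 2 fell and 10 did not pass, with a median of -0.059. Of all tested genes, 5.11% rose and 5.48% fell in the Pkd1 knockouts, and 9.54% rose and 8.13% fell in the Pkd2 knockouts. These shares hold beside the counts of every further list. Klk1, tissue kallikrein of the distal nephron, which frees kinins and so works against angiotensin II, read 124 and 85.5 in the Pkd1 controls against 5.78 and 15.8 in the Pkd1 knockouts. It fell by 3.28 ± 0.46 (adjusted p = 0.00449), and in the Pkd2 model, from 325 and 345 to 61.0 and 27.4, it fell by 3.00 ± 0.46 (adjusted p = 0.00401). It is a member of a large gene family of near-identical copies, among which the counting may have split reads. Of the 12 genes it was also the 1 that was higher in the day 20 than in the day 10 controls, by 1.69 ± 0.46 (adjusted p = 0.044).

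Anpep, aminopeptidase N, which takes the next residue after Enpep, read 120 and 87.5 in the Pkd1 controls against 31.8 and 42.7 in the Pkd1 knockouts. It fell by 1.45 ± 0.22 (adjusted p = 0.0055), and in the Pkd2 model it fell by 1.19 ± 0.22 (adjusted p = 0.00818), from 71.4 and 80.5 to 35.0 and 30.5. Enpep and Anpep, which shorten angiotensin II in turn from its amino end, thus both fell in the Pkd1 knockouts. Without Pkd1 control replicate 1 the adjusted p of Klk1 and of Anpep in that model was 0.051 for each, and without Pkd2 control replicate 2 that of Anpep in the Pkd2 model was 0.076.

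Prcp, prolylcarboxypeptidase, which trims angiotensin II from its other end, was the one gene of the list that rose. It read 7.14 and 7.87 in the Pkd1 controls against 13.7 and 12.4 in the Pkd1 knockouts, a rise of 0.72 ± 0.17 (adjusted p = 0.028). In the authors' deposited table its adjusted p was 0.211, with a log2 fold change of -0.80 for control minus knockout. The call was lost when any of the Pkd1 libraries was left out (adjusted p between 0.079 and 0.154), without either Pkd2 control (0.061 for each), with no filter (0.054), with the replicate block (0.095) and without mitochondrial genes (0.253). The change in the Pkd2 model was 0.29 ± 0.17 (adjusted p = 0.252). Agtrap, which binds the type 1 receptor and promotes its internalisation, was not called, with -0.34 ± 0.17 in the Pkd1 model (adjusted p = 0.240) and -0.10 ± 0.17 in the Pkd2 model (adjusted p = 0.714).

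Of the other receptors, Agtr2 was near the filter in the day 10 kidneys, at 2.53 and 2.25 in the controls and 1.53 and 2.14 in the knockouts. At day 20 it read 0.130 and 0.243 in the controls and 0.112 and 0 in the knockouts. It was lower in the day 20 than in the day 10 controls by a log2 difference of -1.52 ± 0.18 (adjusted p = 0.00160), and its knockout effects were not called (adjusted p = 0.365 and 0.545). Agtr1b, the second type 1 receptor gene of rodents, and Mas1 did not pass the filter, with at most 0.328 in any library. In the authors' deposited table Agtr1b had a log2 fold change, control minus knockout, of 2.15 in the Pkd1 model (adjusted p = 0.0123). In the Pkd2 model it was 0.54 (adjusted p = 0.830). For Mas1 their adjusted p was 0.827 in the Pkd1 model and 0.0937 in the Pkd2 model.

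Markers of proximal tubule, whose brush border carries Ace, Enpep and Mme, fell in the knockouts of both models. Of 20 proximal tubule markers tested, 14 fell and 0 rose in the Pkd1 knockouts (median -1.54), and 12 fell and 0 rose in the Pkd2 knockouts (median -1.20). Their summed level was 3961 and 4233 in the Pkd1 controls against 1152 and 1633 in the Pkd1 knockouts. It was 8106 and 8789 in the Pkd2 controls against 4762 and 2474 in the Pkd2 knockouts. The sodium phosphate transporter Slc34a1 fell by 2.32 ± 0.28 in the Pkd1 model (adjusted p = 0.00252) and by 1.68 ± 0.28 in the Pkd2 model (adjusted p = 0.00534). In whole kidneys, fewer cells of a type and less RNA per cell cannot be told apart, and the part of the proximal tubule markers in the changes of Ace, Enpep and Agtr1a was not tested.

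Peptidases of the brush border other than the members and Anpep, a list of 9 tested genes of which Ggt1 and Dpep1 also stand among the proximal tubule markers, held 5 that fell and 0 that rose in the Pkd1 knockouts and 3 that fell and 0 that rose in the Pkd2 knockouts. Among them Mep1b, a subunit of meprin, fell by 1.88 ± 0.23 (adjusted p = 0.00270) and by 1.34 ± 0.23 (adjusted p = 0.00600). Podocyte markers, from a cell that also carries Enpep and Mme, fell for 7 of 10 in the Pkd1 knockouts and 4 of 10 in the Pkd2 knockouts, with 0 higher in either. Their sums were 484 and 462 against 257 and 250 in the Pkd1 model and 213 and 223 against 174 and 185 in the Pkd2 model. Endothelial markers, from a cell that carries Ace, fell for 4 of 12 in the Pkd1 knockouts, where 5.48% of all tested genes fell, and 1 of 12 in the Pkd2 knockouts, a share near the 8.13% of all tested genes that fell. Their sums were 743 and 611 against 433 and 557, and 713 and 646 against 618 and 469.

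**Figure D4:**
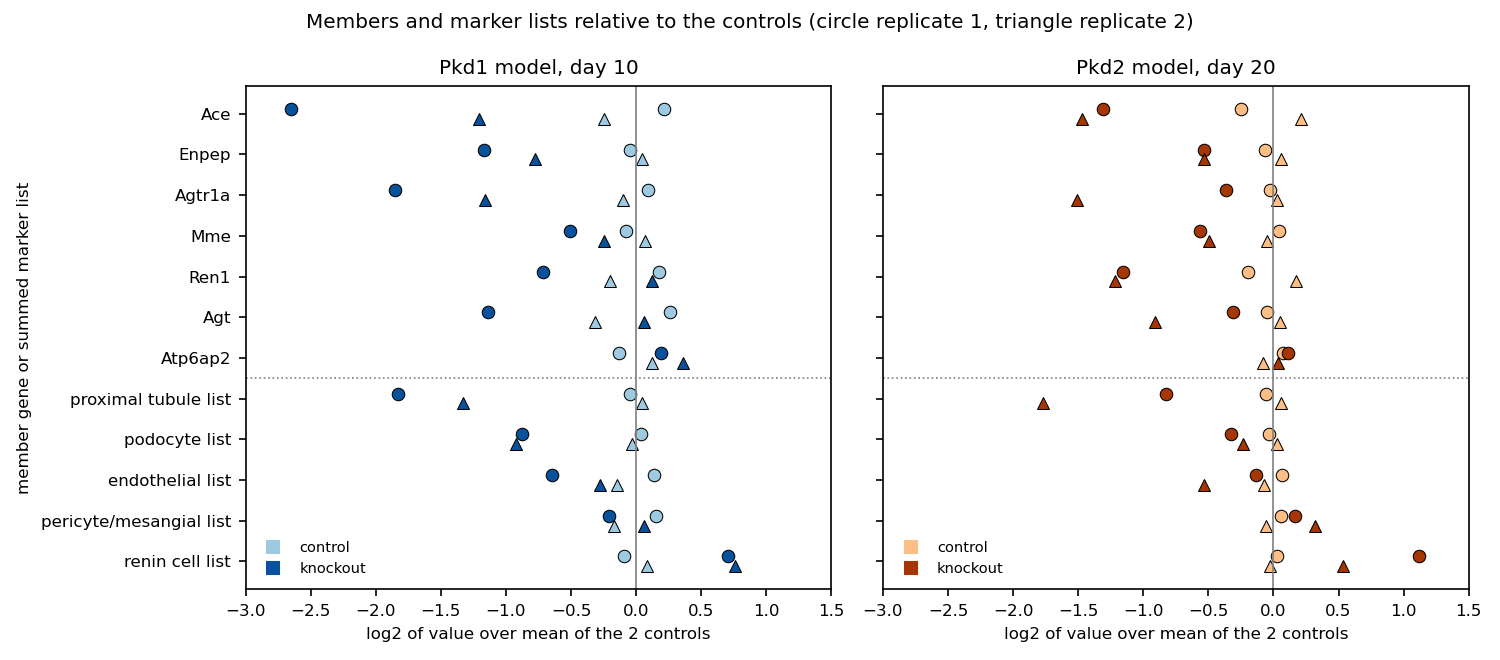
Log2 of each library's value over the mean of the 2 controls of its model, for the member genes (above the dotted line) and for the summed marker lists, with circles for replicate 1 and triangles for replicate 2. In the Pkd1 model Ace (-2.65 and -1.20) and the proximal tubule sum (-1.83 and -1.33) both lie far to the left, and in the Pkd2 model Ren1 (-1.15 and -1.22) does while the renin cell sum (1.12 and 0.53), most of it Rgs5 and Crip1, lies to the right.

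Beside the fall of renin in the Pkd2 knockouts, other genes of the renin cell and its precursors went both ways. Of 6 tested markers of renin cells and their precursors, 1 rose and 0 fell in each model: Rgs5 rose by 0.92 ± 0.21 in the Pkd2 knockouts (adjusted p = 0.020) and Rgs4 by 1.42 ± 0.32 in the Pkd1 knockouts (adjusted p = 0.026). In the authors' deposited table the adjusted p was 0.0846 for this change of Rgs5 and 7.2e-05 for that of Rgs4. Without overlap, 2 of the 6 lay below the Pkd2 controls, Sox17 with a change of -0.61 (adjusted p = 0.118) and Gja4 with -0.58 (adjusted p = 0.139). Another 3 lay above, Rgs5, Rgs4 and Crip1, and the median of the 6 was 0.13. Of all tested genes, 30.9% lay below and 31.9% above, so these counts are no result about renin cells. Crip1 changed by 1.32 ± 0.46 (adjusted p = 0.083), and its adjusted p in the authors' deposited table was 0.00107. Rgs5 is also a marker of pericytes, and read 40.8 and 30.8 in the Pkd2 controls against 74.4 and 62.2 in the Pkd2 knockouts, where Ren1 read 14.6 and 13.9. Akr1b7, an aldo-keto reductase that mouse renin cells make along with renin, read 2.05 and 5.03 in the Pkd2 controls against 1.57 and 3.33 in the Pkd2 knockouts, a change of -0.36 ± 0.35 that was not called (adjusted p = 0.514). Of 8 pericyte and mesangial markers, 1 rose in the Pkd1 model and 2 in the Pkd2 model, with 0 lower, and Mcam rose by 0.87 ± 0.17 in both (adjusted p = 0.017 and 0.012). The authors' deposited table gave Mcam an adjusted p of 0.137 and 0.107, above the threshold used here.

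Genes that act on renin release or transcription were taken from a list of 16 tested genes. In the Pkd1 knockouts 0 rose and 2 fell (5.11% and 5.48% of all tested genes). In the Pkd2 knockouts 1 rose and 3 fell (9.54% and 8.13%). Ptgs2, cyclooxygenase 2, read 0.467 and 0.459 in the Pkd1 controls against 1.82 and 1.38 in the Pkd1 knockouts. Its changes of 0.82 ± 0.40 and, in the Pkd2 model, 0.65 ± 0.40 were not called (adjusted p = 0.222 and 0.293). At such low values the added 1 shrinks a fold change. The authors' deposited table had Ptgs2 higher in both knockouts (adjusted p = 0.000665 and 0.0302). Vdr, the vitamin D receptor, a repressor of the renin gene in mice, fell by 0.86 ± 0.23 in the Pkd1 knockouts (adjusted p = 0.046) and by 1.16 ± 0.23 in the Pkd2 knockouts (adjusted p = 0.011). Its adjusted p in the authors' deposited table was 0.112 in the Pkd1 model and 0.0130 in the Pkd2 model. Nos1, the nitric oxide synthase of the macula densa, fell by 1.22 ± 0.24 in the Pkd1 knockouts (adjusted p = 0.015). Ptger4, a prostaglandin receptor of renin cells and of other cells, read 2.99 and 3.88 in the Pkd2 controls against 6.28 and 10.4 in the Pkd2 knockouts, a rise of 1.05 ± 0.23 (adjusted p = 0.018). Which cells of the kidney this rise came from was not tested.

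Beside Atp6ap2, which was not called, 18 subunits and partners of the V-ATPase were tested. In the Pkd1 knockouts 2 fell and 0 rose, and in the Pkd2 knockouts 2 fell and 0 rose, with medians of -0.31 and -0.47. Atp6v0c, of the membrane ring of the pump, fell by 0.99 ± 0.19 in the Pkd1 knockouts (adjusted p = 0.015). Atp6v1b1, the subunit of intercalated cells, fell by 0.89 ± 0.24 in the Pkd2 knockouts (adjusted p = 0.035). In the authors' deposited table the adjusted p of these changes was 0.0690 for Atp6v0c and 0.0866 for Atp6v1b1. The change of the prorenin receptor was positive in both models, as were those of Atp6v0a1 (0.042 and 0.20) and Atp6v0a2 (0.0049 and 0.063) of the list, and none of the 3 was called.

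Markers of other tissues were checked because Agt is also made in liver and fat. Macrophage markers rose for 9 of 10 in each model, with 0 lower. Hepatocyte markers held 0 higher and 1 lower of 7 in the Pkd1 knockouts, and 2 higher and 3 lower in the Pkd2 knockouts. There Fgb and Fga, chains of fibrinogen, rose by 2.05 ± 0.25 (adjusted p = 0.0017) and 2.60 ± 0.50 (adjusted p = 0.0104), and Alb, albumin, fell by 3.72 ± 0.59 (adjusted p = 0.00467). Fat markers held 1 higher and 0 lower of 8 in the Pkd1 knockouts, and 0 higher and 3 lower in the Pkd2 knockouts, where Ucp1 fell by 3.63 ± 0.69 (adjusted p = 0.00940). Only 2 of 8 adrenal markers, Hsd3b1 and Star, were tested and 0 were called. Their Pkd2 controls lay far apart, at 1.51 and 63.5 for Hsd3b1 and at 1.30 and 35.9 for Star. In the authors' deposited table both were lower in the Pkd2 knockouts (adjusted p = 2.49e-50 and 2.28e-28). There Hsd3b1 was higher in the Pkd1 knockouts (adjusted p = 0.00354), and the adjusted p of Star was 0.304. The part of these tissues in the values of Agt was not tested.

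Over the 8 kidney libraries, the genes of like pattern were ranked by Pearson's r on the log2 scale among 9529 genes with a mean value of at least 5. The libraries form 4 groups and share scaling and depth, so r is a description. Nearest to Ren1 were Srrm1 (0.98), Thtpa (0.98) and Mrgbp (0.97), and nearest to Agt were Gramd1b, Prr15l and Plekhb1 (each 0.97). Nearest to Ace were Car15 (0.99), a carbonic anhydrase, Plekha7 (0.98) and Dennd3 (0.98). Nearest to Agtr1a were Irx3, Rnf181 and Btd (each 0.99). Nearest to Enpep were Cttnbp2, Tst and Fgd5 (each 0.98), to Mme Mul1 (0.98), Add3 (0.98) and Immt (0.97), and to Atp6ap2 Klhl24 (0.97), Pisd (0.96) and Chmp2a (0.96).

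In the mIMCD-3 cells, Enpep and Atp6ap2 were lower and Mme was higher with the Hoxb3os gapmer. Every one of the 2016 genes given for the cells had an adjusted p below 0.05 in the authors' deposited table (100% called), so that 3 members were called is no result, and only their directions and sizes are described. Of the 2016 genes, 1120 were lower and 896 higher, and the median size of the log2 fold changes computed here was 0.225. The cell values are read counts divided by a size factor for each library. The SE given for the cells (2 libraries against 3) comes from a limma fit of these 2016 genes alone. That fit takes its spread mostly from the selected genes as a set, with 36.2 prior against 3 residual degrees of freedom. So this SE is not the spread of a gene's own libraries.

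Enpep read 854 and 1141 with the control gapmer and 713, 655 and 670 with the Hoxb3os gapmer. The control libraries lay apart by more than the 3 Hoxb3os libraries did. The difference was -0.54 ± 0.08 on the log2 scale, 0.681 times the control mean. In the authors' deposited table it was -0.42 with an adjusted p of 6.58e-06, on their moderated scale.

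Atp6ap2 read 4718 and 4965 with the control gapmer and 4169, 4044 and 4063 with the Hoxb3os gapmer, a difference of -0.24 ± 0.05 and 0.845 times the control mean. In the authors' deposited table it was -0.23 with an adjusted p of 7.33e-06. Mme read 8244 and 8548 with the control gapmer and 9615, 9164 and 9165 with the Hoxb3os gapmer, a difference of 0.15 ± 0.04 and 1.11 times the control mean. In the authors' deposited table it was 0.14 with an adjusted p of 0.00438. Of the 3, Enpep had the same sign here and in the Pkd1 and Pkd2 knockouts (-0.96 and -0.52). Mme (-0.37 and -0.52) and Atp6ap2 (0.27 and 0.07) had the opposite sign there. Of these kidney changes only that of Enpep in the Pkd1 model was called, so the signs are a description. Mme and Enpep, the peptidases of the brush border, differed in opposite directions in this line of collecting duct cells.

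**Figure D5:**
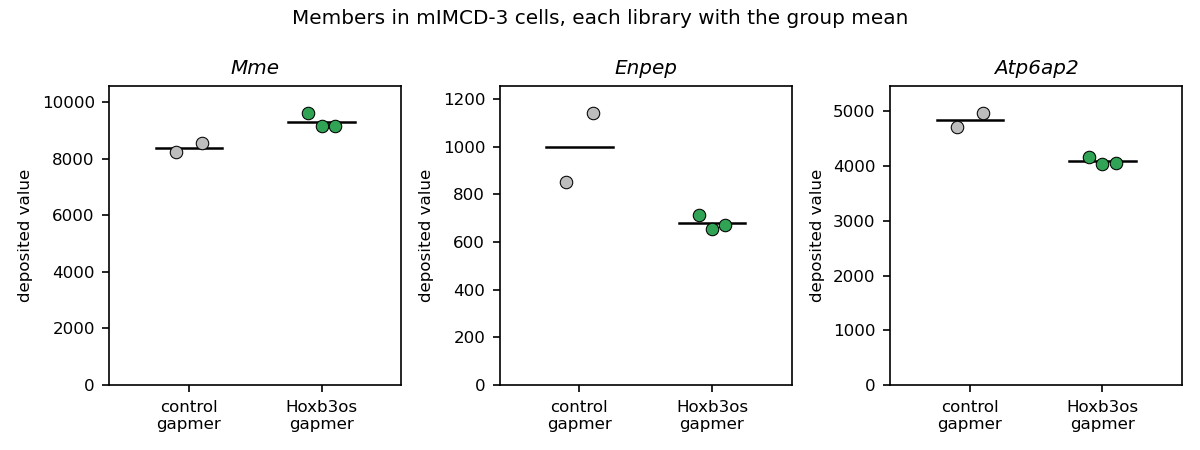
Deposited value (size-factor scaled counts, linear axes from 0) of the 3 member genes with a row in the cell table, in 2 control and 3 Hoxb3os gapmer libraries of mIMCD-3 cells, with lines for the group mean. With the Hoxb3os gapmer the means of Enpep and Atp6ap2 lie at 0.681 and 0.845 times the control mean. That of Mme lies higher, at 1.11 times.

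Of the other pathway genes, 3 had a row in the cell table. Agtrap read 2605 and 2877 with the control gapmer and 2336, 2431 and 2338 with the Hoxb3os gapmer, a difference of -0.21 ± 0.05. Prcp, the gene of the pathway that rose in the Pkd1 knockouts, read 451 and 484 with the control gapmer and 570, 612 and 543 with the Hoxb3os gapmer, a difference of 0.30 ± 0.08. Prep, prolyl oligopeptidase, differed by 0.14 ± 0.05.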

How the data were processed

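RNA-seq was analysed from 8 kidney libraries in 4 groups and 5 mIMCD-3 libraries in 2 groups. Per the submitters' processing notes, kidney reads went with build mm10 and STAR 2.4.2a, RSEM 1.2.22, Cufflinks 2.2.1, FastQC 0.11.2 and edgeR, and cell reads with build GRCm38 and DESeq2 1.12.3, SAMtools 1.0, STAR 2.4.2a and Trimmomatic 0.32, with no role given. Kidney values, as deposited, are a signal, CPM over a scaling factor for each library: 92.9% to 95.0% of listed values were whole multiples of 1 read (0.00820 to 0.0280) within 0.02, and these reads set the depth. Cell values, as deposited, are also a signal, counts over size factors, with the authors' log2 fold changes and adjusted p-values per the file headers; all genes given have an adjusted p of at most 0.0500, so they are a selection. The deposited kidney log2 fold changes are control minus knockout.

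Since the values are scaled, limma 3.58.1 (trend, R 4.3.3) was used on log2(value + 1) in place of a count test, for kidney genes that reached 1 in 2 or more libraries, in 1 fit of 4 groups with 4 residual degrees of freedom. A gene was called at an adjusted p below 0.05. The scripts were tested on simulated data. The members and the lists of pathway genes and cell markers were chosen with earlier results of these data known, and 1 gene of the pathway list is not reported here. Named were all members and the called pathway genes with Agtr1b, Agtr2, Mas1, Anpep and Agtrap. At most 3 called genes of each other list, with the smallest adjusted p, and the 3 nearest genes of each member were also named. Pkd1, Pkd2, Gm11651, Xist, Akr1b7, Prep, Sox17, Gja4, Crip1, Ptgs2, Ggt1, Dpep1, Atp6v0a1, Atp6v0a2, Hsd3b1 and Star were added after their values were seen. Alternatives were a pseudocount of 0.1, no filter, quantile scaling, edgeR 4.0.16 and DESeq2 1.42.0 on the recovered reads, each model alone, a replicate block, no mitochondrial genes, each library left out and a Y-linked covariate, the last chosen after seeing the data.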

Additional observations from a re-analysis of the deposited data

How the results depend on the processing

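Of the 7 genes, 3 were called in the Pkd1 model, 2 without mitochondrial genes, where Enpep lost its call, and 1 with no filter on low values. The count over the fits that left out 1 library ran from 0 to 3. In the Pkd2 model 2 were called, 1 with a pseudocount of 0.1, with quantile scaling, with edgeR or with the replicate block, and 0 with no filter or without mitochondrial genes, and leaving out 1 library gave 0 to 2. For the older against the younger controls 0 were called, 1 with quantile scaling and 2 with DESeq2, and 0 to 2 with 1 library left out. For the difference of the effects 0 were called under every alternative run. The causes were not tested.

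Leaving out the mitochondrial genes moved the median of all genes to 0.26 in the Pkd2 model, to -0.19 between the controls and to -0.26 for the difference. Relative to that median, the Pkd2 changes of Ren1 and Ace were -1.08 and -1.31. Agtrap turned to 0.19 in the Pkd2 model under it, and Agtr1a to -0.050 between the controls, while for the difference Agt turned to -0.15, Mme to -0.15 and Atp6ap2 to -0.088. With quantile scaling Mme turned to -0.073 for the difference. With 1 library left out, the Pkd1 change ran from -0.69 to 0.13 for Ren1 and from -0.98 to 0.081 for Agt, the Pkd2 change from -0.0029 to 0.15 for Atp6ap2 and from -0.22 to 0.0065 for Agtrap, and the difference from -0.41 to 0.66 for Agt, from -0.97 to 0.032 for Agtr1a and from -1.22 to 0.19 for Ace. None of these was called.

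Over all genes, the Pkd1 count of 1550 was 790 with no filter, 727 without mitochondrial genes, 2491 with the Y-linked covariate and 332 to 2487 with 1 library left out. The Pkd2 count of 2587 was 1366 with each model alone, 1440 without mitochondrial genes and 669 to 4328 with 1 library left out. The count of 1801 between the controls was 952 without mitochondrial genes, 1077 with the covariate and 412 to 2571 with 1 library left out. The 1 gene called for the difference became 184 with DESeq2, 8 with quantile scaling, 5 with edgeR, 5 with a pseudocount of 0.1, 11 without mitochondrial genes, 6 with the covariate, and 0 with no filter or the block.

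The labels give both groups of a model the same replicate numbers but do not say that a number marks anything shared, and the deviations of same-numbered libraries correlated at -0.38 (Pkd1) and -0.05 (Pkd2). With the replicate block 1044 and 1812 genes were called, and Ace in the Pkd2 model (adjusted p = 0.060) and Prcp in the Pkd1 model (0.095) were not. No block was run for the controls of different age, and a fit of each model alone gives neither that comparison nor the difference. With 2 libraries per group, 1 library left out leaves a group with a lone library, assumed to vary like the others, and each member rested on at least 197 reads in each kidney library.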
